A study of Mus musculus with 12 samples.

Results

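The genes of mouse chromosome 9 were followed in order of position through 3 MC38 cell lines. A gene was a member if its array feature carried 1 gene symbol in the platform annotation, lay on chromosome 9 in the gene reference and was detected, at a detection p-value below 0.05, by 4 or more of the 12 arrays. The array named 1103 genes of this chromosome, and 508 of them met the rule, out of 9100 genes tested on all chromosomes (5.58%). Of the 595 that did not, 425 were detected on no array and 170 on 1 to 3 arrays. The chromosome itself was chosen by measured values, namely the earlier observation that its genes were raised in the CEACAM1-S line. The difference between CEACAM1-S and control is therefore given for these genes as a description, without a test of the chromosome, and the same holds for the difference between CEACAM1-L and CEACAM1-S.

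MC38 is a line of metastatic mouse colon cancer cells that grows in C57BL/6 mice. The control line lacked CEACAM1, a cell adhesion receptor. The second line expressed the short isoform CEACAM1-S and the third the long isoform CEACAM1-L, and all cells were kept for 72 h in medium with 10% serum and selection antibiotics before total RNA was taken for 4 arrays per line. The labels do not say whether a line is 1 clone or whether the 4 samples are separate cultures, so errors and p-values cover no more than the spread among arrays of a line, possibly a technical one. Levels below are background-corrected, quantile-normalised intensities on a log2 scale, and differences are log2 differences between group means ± their standard error from a fit to all 9100 genes. A gene was called higher or lower when its p-value in that fit, adjusted by the Benjamini-Hochberg method over all genes, was under 0.05.

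Many neighbours along a chromosome serve unrelated functions, although some lie in clusters of related genes. In tumour lines, gain or loss of a chromosome is known to move the transcripts of many of its genes by a modest proportion in one direction, whereas a signalling pathway acts on genes scattered over the genome. Mouse chromosome 9 carries a matrix metalloproteinase cluster and inflammatory caspases near its start, the TGF-beta receptor gene Tgfbr2 near its end, and many housekeeping genes. DNA copy number was not measured in these samples, and its part in the differences below was not tested.

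The Ceacam1 level was lowest in the control line: its mean was 4.92 ± 0.06 there, where the feature was still detected on all 4 arrays, 8.33 ± 0.39 in CEACAM1-S and 6.55 ± 0.12 in CEACAM1-L (SD, n = 4). This level does not tell the isoforms apart, so it does not check which line carries which isoform. Raw array medians lay between 86.6 and 103 intensity units, and 14717 to 16071 features were detected per array. Few markers of colon epithelium were detected: 4 of 12 passed the detection rule (Cdh1, Krt8, Lgals4 and Cldn7), whereas Epcam, Krt18, Krt19, Krt20, Vil1 and Muc2 were detected on no array. Krt8, a keratin of simple epithelia, was called lower in CEACAM1-S, by -1.03 ± 0.18 (limma adjusted p = 0.00015), and differed by -0.43 ± 0.18 in CEACAM1-L (adjusted p = 0.0656). Of 6 immune markers on the array only Csf1r passed, and Ptprc and Cd3e were detected on no array. Of 10 endothelial and fibroblast markers 8 passed, and members differed in both directions: 3 were called higher and 1 lower in CEACAM1-S, with a list median of 0.20, and 4 higher and 1 lower in CEACAM1-L. Dcn, a matrix proteoglycan of fibroblasts, differed by 3.29 and 2.80, and Cdh5, the cadherin of endothelial junctions, by -0.70 and -0.85. The summed level of the 8 ran from 43.0 to 44.4 on control, 48.3 to 49.8 on CEACAM1-S and 47.1 to 49.4 on CEACAM1-L arrays, and Pecam1 and Lum were detected on no array. The part of these markers in the chromosome 9 differences was not tested. In RNA from a whole culture, less RNA per cell and fewer cells of a kind cannot be told apart.

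Promoter sequences are shown for 8 genes placed from one end of the chromosome to the other. All 8 were raised in CEACAM1-S and were picked with that known, so nothing is read from their sequences. Each is the 100 bases before the start of the gene in RefSeq (GRCm38.p6), read 5′ to 3′ along the gene's own strand, with the dinucleotide CG in capitals. The Casp1 stretch is chr9:5298417-5298516 on the plus strand. The Keap1 stretch is chr9:21239333-21239432 on the minus strand. The Islr stretch is chr9:58158555-58158654 on the minus strand. The Kif23 stretch is chr9:61946800-61946899 on the minus strand. The Mns1 stretch is chr9:72438429-72438528 on the plus strand. The Gpx1 stretch is chr9:108338980-108339079 on the plus strand. The Tgfbr2 stretch is chr9:116175364-116175463 on the minus strand. The Kif15 stretch is chr9:122950981-122951080 on the plus strand.
Casp1: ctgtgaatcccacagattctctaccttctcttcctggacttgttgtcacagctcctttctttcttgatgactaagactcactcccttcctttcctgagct
Keap1: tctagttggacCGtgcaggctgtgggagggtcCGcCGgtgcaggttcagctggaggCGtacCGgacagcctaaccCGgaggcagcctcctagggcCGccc
Islr: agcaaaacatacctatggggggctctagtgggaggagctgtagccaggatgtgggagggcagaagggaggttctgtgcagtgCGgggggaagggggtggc
Kif23: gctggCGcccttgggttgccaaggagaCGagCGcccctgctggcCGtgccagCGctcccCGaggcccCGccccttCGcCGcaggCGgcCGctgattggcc
Mns1: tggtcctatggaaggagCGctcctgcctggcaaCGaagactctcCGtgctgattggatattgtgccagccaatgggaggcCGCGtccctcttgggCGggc
Gpx1: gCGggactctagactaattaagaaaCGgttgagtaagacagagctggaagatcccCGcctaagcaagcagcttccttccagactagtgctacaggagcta
Tgfbr2: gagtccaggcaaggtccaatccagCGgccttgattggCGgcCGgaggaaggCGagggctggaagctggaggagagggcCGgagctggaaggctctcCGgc
Kif15: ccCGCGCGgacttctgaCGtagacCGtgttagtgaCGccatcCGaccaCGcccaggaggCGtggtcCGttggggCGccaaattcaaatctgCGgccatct

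The stretch of Casp1 holds 0 CG dinucleotides, that of Islr 1, that of Gpx1 3, those of Mns1 and Tgfbr2 6 each, that of Keap1 7, that of Kif23 11 and that of Kif15 12. A promoter was found for 444 of the 508 genes, and the median count of CG in this stretch was 8 both for them and for all tested genes. Genes were also split into 3 bins by the CG count of a longer promoter sequence than the stretch shown. The bounds, at 16.7 and 26 CG, were set over all tested genes with a promoter. On chromosome 9 the median difference of CEACAM1-S from control was 0.36 in the bin with the fewest, 0.39 in the middle bin and 0.35 in the bin with the most. It was 0.36 for genes read on the plus strand and 0.38 for genes on the minus strand. On the other chromosomes the medians were 0.004, -0.02 and -0.05 from the bin with the fewest CG to that with the most, and -0.02 on each strand. The chromosome 9 medians of the bins and of the strands thus lay close together. Since the chromosome was picked from this contrast, nothing is read from this, and the part of promoter sequence was not tested.

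On the chromosome as a whole, the shift in CEACAM1-S was broad and small. Of the 508 genes, 428 (84.3%) had a higher mean in CEACAM1-S than in the control line, with a median difference of 0.37 (1.29-fold) and quartiles of 0.13 and 0.61. Among the 8579 genes of the other chromosomes, 46.6% were higher and the median was -0.02. On chromosome 9, 240 genes (47.2%) were called higher, beside 12.2% of all tested genes, and 12 (2.36%) were called lower, beside 11.4% of all. In 227 chromosome 9 genes every CEACAM1-S array lay above every control array, a pattern found in 12% of all tested genes. Since the chromosome was picked from this contrast, nothing is read from these counts. Called genes that moved at least 2-fold were 26 up and 3 down, beside 114 up and 99 down among the 8579 genes of the other chromosomes. Chromosome 9 holds 5.58% of the tested genes and 21.6% of those called higher in CEACAM1-S. The count depended on the normalisation: with arrays scaled to a common median it was 26 higher and 2 lower. The 26 were 5.12% of the chromosome's genes, beside 1.66% of all tested genes in that setting. The median over that of all other genes stayed at 0.39. That median was 0.24 without background correction, 0.21 in the authors' processed values and 0.06 when undetected genes were kept, against 0.40 as reported.

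**Figure D1:**
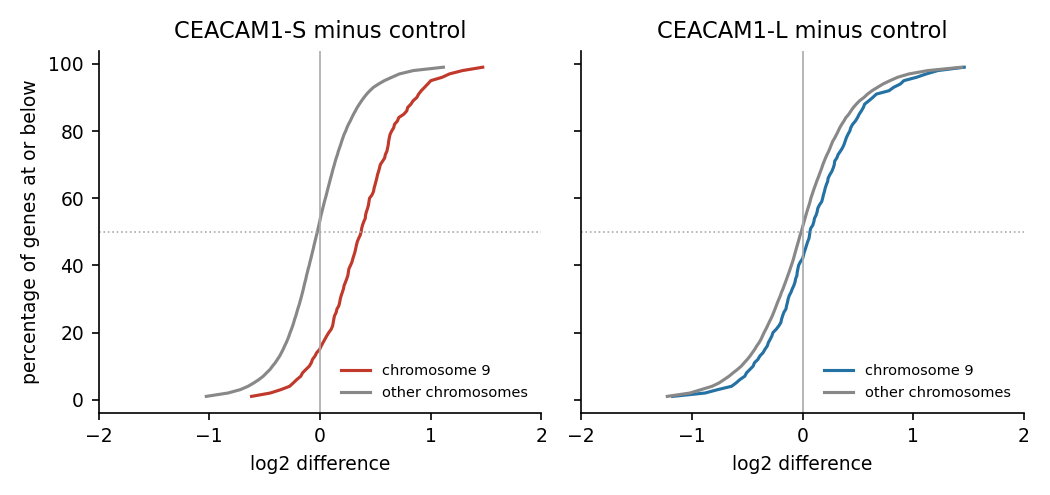
Percentage of genes (vertical axis) at or below each log2 difference (horizontal axis), for CEACAM1-S minus control on the left and CEACAM1-L minus control on the right, with chromosome 9 in colour and the other chromosomes in grey. On the left the whole curve of chromosome 9 lies to the right, with a median of 0.37 against -0.02. On the right the curves lie close, with medians of 0.07 and -0.01.

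Each array was also given a single value, the median over chromosome 9 genes of the difference from the control mean, less the same median over all other genes. The control arrays 1 to 4 had values of -0.01, 0.01, 0.03 and -0.02. The CEACAM1-S arrays had 0.43, 0.35, 0.43 and 0.42, and the CEACAM1-L arrays 0.08, 0.10, 0.05 and 0.18. All CEACAM1-S arrays were above all CEACAM1-L arrays, which in turn were all above the control arrays, so the 3 groups did not overlap. The group means were 0.002 ± 0.02 for control, 0.41 ± 0.04 for CEACAM1-S and 0.10 ± 0.05 for CEACAM1-L (SD, n = 4). The lowest CEACAM1-S array stood 0.32 above the highest control array. Within each line, the 2 arrays with the highest raw maximum were called set A and the other 2 set B. The balance of the sets over the lines was therefore made by this rule, and the labels name no such sets. Raw maxima ran from 30290 to 40614 in set A and from 17443 to 27138 in set B. For CEACAM1-S minus control, the median of chromosome 9 over the other genes was 0.41 within set A and 0.39 within set B.

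**Figure D2:**
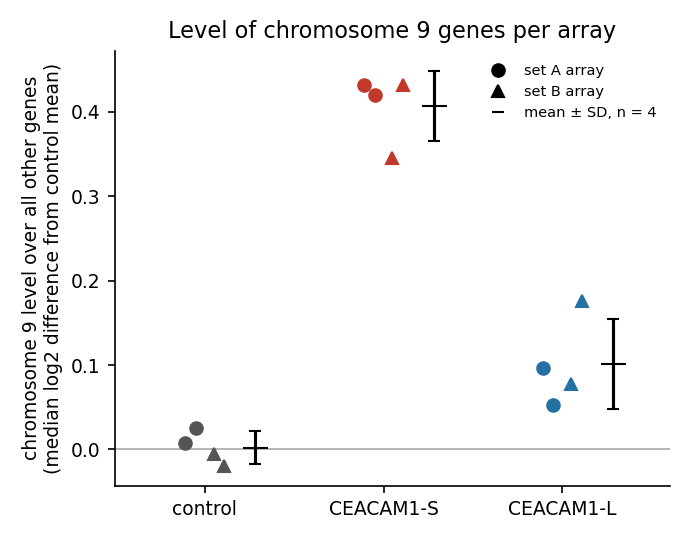
Level of chromosome 9 on each of the 12 arrays, as the median log2 difference of its genes from the control mean less that of all other genes (vertical axis), by line (horizontal axis). Circles are set A arrays and triangles set B arrays; the bars give the mean ± SD of 4 arrays. The CEACAM1-S arrays sit between 0.35 and 0.43, above the CEACAM1-L arrays at 0.05 to 0.18 and the control arrays at -0.02 to 0.03.

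The shift ran from one end of the chromosome to the other. In 13 consecutive windows of 10 Mb, which held 13 to 86 tested genes each, the median difference of CEACAM1-S from control was positive in all 13 and lay between 0.23 and 0.47. The lowest was the window from 80 to 90 Mb, from the unconventional myosin gene Myo6 to Tmed3, and the highest that from 110 to 120 Mb, from the helicase gene Dhx30 to Csrnp1. In each of the 13 windows every CEACAM1-S array lay above every control array, and in 11 every CEACAM1-S array lay above every CEACAM1-L array. At 5 Mb these counts were 23 and 19 of 25 windows. They were not taken for windows of other chromosomes, and the chromosome was picked from this contrast, so nothing is read from them. In windows of 5 Mb the median was positive in 24 of 25, and the exception was the window from 15 to 20 Mb with 9 genes and a median of -0.01. The running median over 21 genes stayed between 0.11 and 0.54. Of 204 windows of 10 Mb on other chromosomes with at least 13 genes, 3 reached 0.23, and all lay on chromosome 5 between 20 and 50 Mb, with medians of 0.25, 0.44 and 0.34 in CEACAM1-S and 0.47, 0.62 and 0.48 in CEACAM1-L.

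**Figure D3:**
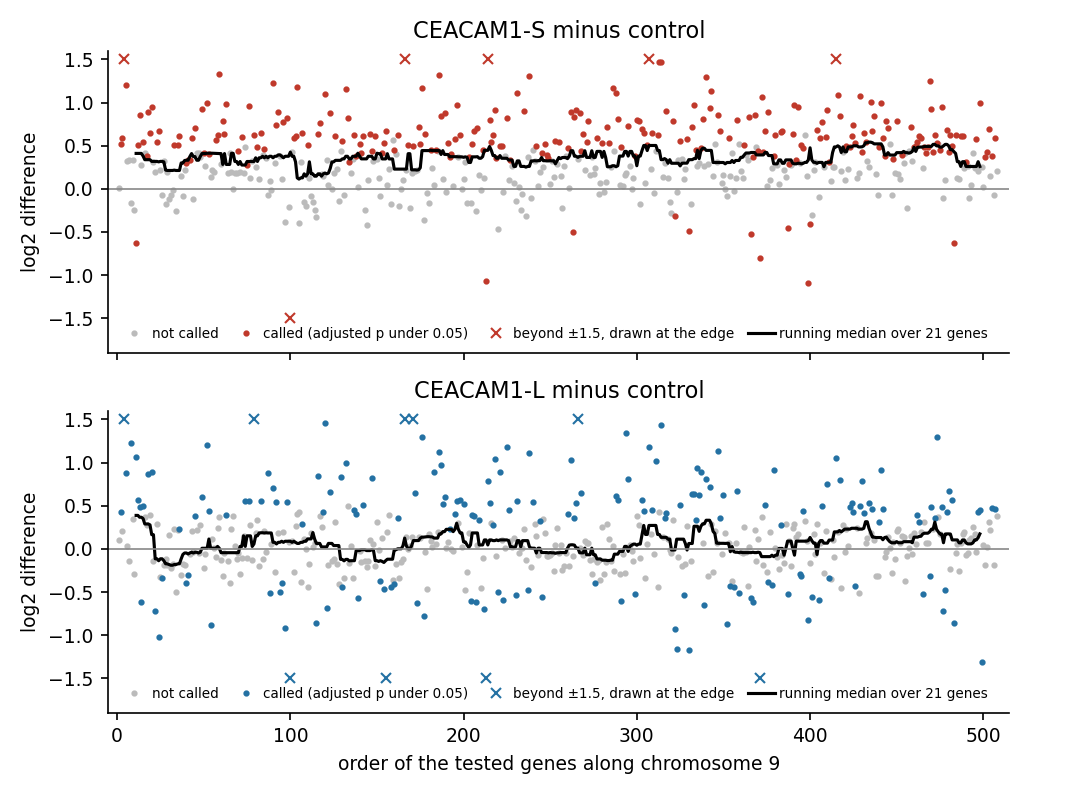
Log2 difference from control (vertical axis) of the 508 chromosome 9 genes in their order along the chromosome (horizontal axis), for CEACAM1-S above and CEACAM1-L below. Coloured points are genes called at an adjusted p under 0.05, grey points the others, crosses genes beyond 1.5 in either direction drawn at that height, and the black line is the running median over 21 genes. The line stays between 0.11 and 0.54 in CEACAM1-S and between -0.19 and 0.39 in CEACAM1-L.

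The medians of the other 19 chromosomes in CEACAM1-S ranged from -0.06 to 0.05, with 7.02% to 19.4% of their genes called higher. Chromosome 5, at the top of both ranges, was itself raised in CEACAM1-L, with a median of 0.26 and 42.2% of 625 genes called higher. On the per-array scale its level was 0.24 to 0.34 on the CEACAM1-L arrays and 0.05 to 0.09 on the CEACAM1-S arrays.

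**Figure D4:**
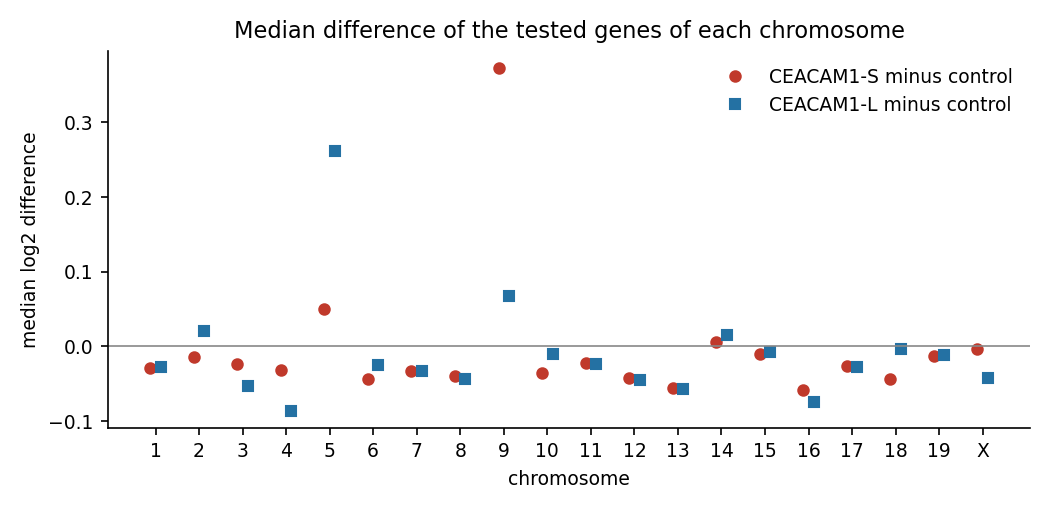
Median log2 difference from control (vertical axis) of the tested genes of each chromosome (horizontal axis), with circles for CEACAM1-S and squares for CEACAM1-L. Chromosome 9 stands at 0.37 in CEACAM1-S and 0.07 in CEACAM1-L, and chromosome 5 at 0.05 and 0.26.

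In CEACAM1-L the genes of chromosome 9 moved both ways. Against control, 127 (25%) were called higher, beside 18.2% of all tested genes, and 63 (12.4%) were called lower, beside 18% of all. The median difference was 0.07, and 58.1% of the genes were above 0. At least 2-fold, 22 called genes rose and 8 fell, beside 231 and 188 of the 8579 genes of the other chromosomes. Over 10 Mb windows the median was positive in 10 and negative in 3, from -0.14 to 0.42. The highest was the first window, from Alkbh8 to Yap1, where CEACAM1-L (0.42) and CEACAM1-S (0.34) were both raised. Compared with CEACAM1-S directly, 189 genes (37.2%) were lower in CEACAM1-L, beside 12.9% of all, and 19 (3.74%) were higher, beside 13.2%, with a median of -0.29 that was negative in all 13 windows. The comparisons with control share the 4 control arrays, so their values are set side by side below and no relation between them is given.

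The shares of the gene lists below are to be read against the chromosome's own 47.2% higher and 2.36% lower in CEACAM1-S and 25% and 12.4% in CEACAM1-L. Over all tested genes these shares were 12.2%, 11.4%, 18.2% and 18%. Lists of 4 to 30 genes were not tested against either.

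The start of the chromosome holds genes of inflammation and matrix breakdown. Casp1 (chr9:5298517-5307281), the caspase that matures interleukin-1 beta, had levels of 9.13, 8.96, 9.34 and 9.05 on the control arrays, 10.83, 10.93, 11.16 and 10.96 in CEACAM1-S and 11.12, 11.22, 10.90 and 11.20 in CEACAM1-L. Both isoform lines lay above control on every array and overlapped each other. The difference was 1.85 ± 0.10 (3.59-fold) in CEACAM1-S and 1.99 ± 0.10 (3.96-fold) in CEACAM1-L (limma adjusted p = 3.3e-13 for the latter). Its neighbour Casp4, the caspase that senses cytosolic lipopolysaccharide, was higher by 1.20 ± 0.14 and 0.88 ± 0.14 (adjusted p = 2.43e-05 in CEACAM1-L), although its other 2 kept features gave 0.52 and 0.04 in CEACAM1-S. Yap1, the transcriptional effector of the Hippo pathway, was higher by 0.86 ± 0.14 and 0.48 ± 0.14 (adjusted p = 0.00872 in CEACAM1-L). Of the 6 tested genes of the list of caspases, IAPs and inflammasome signalling, 4 (66.7%) were called higher and 0 lower in CEACAM1-S, with a median of 0.68, and 4 (66.7%) higher and 1 (16.7%) lower in CEACAM1-L, with a median of 0.52.

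The matrix metalloproteinase cluster, whose enzymes cut collagens and other matrix proteins, lies beside them. Of its 4 tested members, 0 were called higher and 1 (25%) lower in CEACAM1-S, with a median of -0.20, and 2 (50%) higher and 0 lower in CEACAM1-L, with a median of 0.71. Mmp10, or stromelysin-2, had levels of 7.05, 6.94, 7.50 and 7.0 in the control line, 6.02, 7.45, 6.15 and 6.34 in CEACAM1-S, and 8.26, 8.22, 8.25 and 8.02 in CEACAM1-L. The CEACAM1-L arrays were all highest, while the second CEACAM1-S array lay among the controls. The difference was 1.07 ± 0.22 in CEACAM1-L (adjusted p = 0.000357), beside -0.63 ± 0.22 in CEACAM1-S, and the call in CEACAM1-S was lost without CEACAM1-S array 1 (-0.48), 3 (-0.52) or 4 (-0.58) or control array 3 (-0.51). Mmp13, an interstitial collagenase, was higher by 1.23 ± 0.24 in CEACAM1-L (adjusted p = 0.000212) and differed by -0.16 ± 0.24 in CEACAM1-S; its other kept feature gave 0.08 and -0.02, so the features disagree.

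Of 11 tested cell cycle genes, 9 (81.8%) were called higher and 0 lower in CEACAM1-S, with a median of 0.90, the value of Kif23. In CEACAM1-L, 3 (27.3%) were called higher, close to the chromosome's share, and 1 (9.09%) lower, with a median of 0.22. Spc24, a kinetochore subunit of the Ndc80 complex, differed by 1.33 ± 0.16 in CEACAM1-S and 0.37 ± 0.16 in CEACAM1-L (adjusted p = 0.0724). Mns1, a filament protein needed for cilia and sperm flagella in mice, had levels of 8.76, 9.15, 9.01 and 8.94 in the control line, 10.15, 9.96, 10.11 and 10.34 in CEACAM1-S, and 8.71, 9.02, 9.0 and 9.24 in CEACAM1-L. Every CEACAM1-S array stood above the other 8 arrays, with a difference of 1.17 ± 0.12 (2.25-fold), while CEACAM1-L differed from control by 0.03 ± 0.12 (adjusted p = 0.882). Kif15, a mitotic kinesin near the far end of the chromosome, differed by 0.99 ± 0.13 and 0.45 ± 0.13 (adjusted p = 0.00781 in CEACAM1-L). Kif23, a kinesin of the central spindle in cell division, differed by 0.90 ± 0.11 and 0.23 ± 0.11, but its other 3 kept features gave 0.48, 0.19 and -0.29 in CEACAM1-S. Cdkn2d, an inhibitor of the G1 cyclin-dependent kinases, was higher in both lines, by 0.99 ± 0.17 and 1.20 ± 0.17 (adjusted p = 4.68e-06 in CEACAM1-L).

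**Figure D5:**
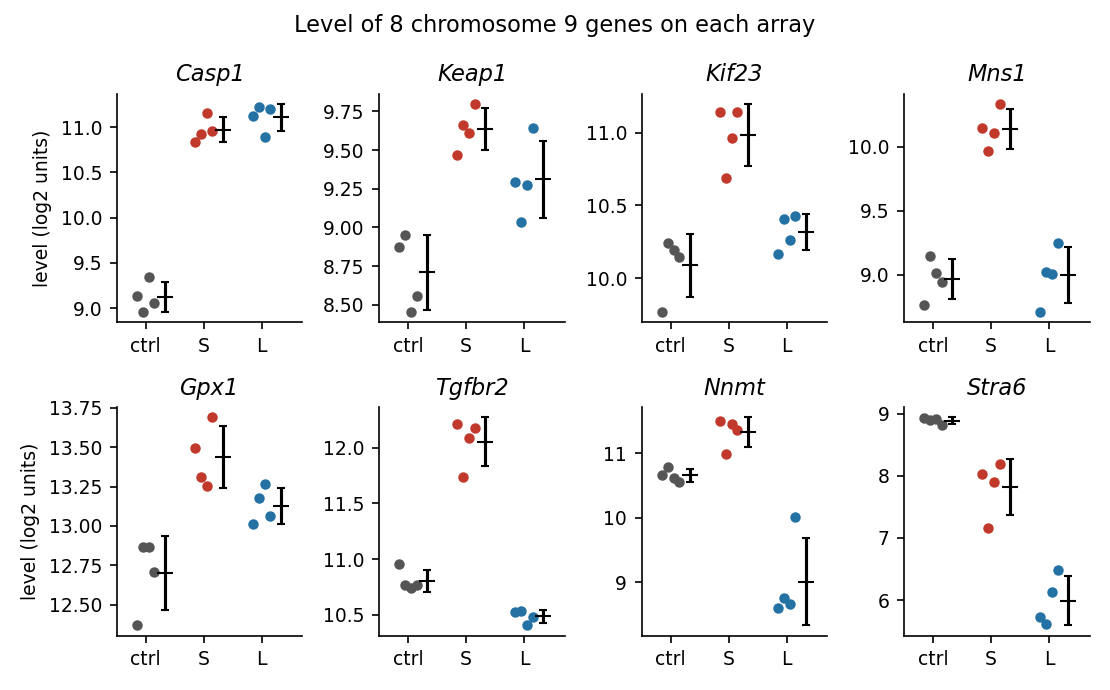
Normalised log2 level (vertical axis, own scale per gene) of 8 chromosome 9 genes on each array of control (ctrl), CEACAM1-S (S) and CEACAM1-L (L); points are arrays and bars the mean ± SD of 4 arrays. Casp1 and Keap1 are higher in both isoform lines, Mns1 stands up in CEACAM1-S alone among the 3 lines, Tgfbr2 and Nnmt are highest in CEACAM1-S and lowest in CEACAM1-L, and Stra6 falls from control through CEACAM1-S to CEACAM1-L.

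Of 29 tested genes of metabolic enzymes and transport, 21 (72.4%) were called higher and 1 (3.45%) lower in CEACAM1-S, with a median of 0.52, and 11 (37.9%) higher and 4 (13.8%) lower in CEACAM1-L, with a median of 0.18. Idh3a, the catalytic subunit of mitochondrial isocitrate dehydrogenase, differed by 1.17 ± 0.17 in CEACAM1-S and 1.30 ± 0.17 in CEACAM1-L (adjusted p = 1.89e-06). Gpx1, the cytosolic glutathione peroxidase, had levels of 12.37, 12.86, 12.86 and 12.71 in the control line, 13.49, 13.31, 13.26 and 13.69 in CEACAM1-S, and 13.01, 13.18, 13.26 and 13.06 in CEACAM1-L. All isoform arrays lay above all control arrays, by 0.74 ± 0.11 (1.67-fold) and 0.43 ± 0.11 (1.34-fold, adjusted p = 0.00318 in CEACAM1-L). Gsta4, a glutathione transferase that detoxifies lipid aldehydes and stands outside this list, differed by 1.51 ± 0.21 and 1.18 ± 0.21 (adjusted p = 6.61e-05 in CEACAM1-L). Cox7a2, a subunit of cytochrome c oxidase, differed by 1.47 ± 0.19 and 0.42 ± 0.19 (adjusted p = 0.0924 in CEACAM1-L), and the overlapping gene Tmem30a, a subunit of lipid flippases, by 1.47 ± 0.20 and 1.44 ± 0.20 (adjusted p = 4.02e-06 in CEACAM1-L).

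Among genes of protein folding and turnover, 11 of 18 (61.1%) were called higher and 0 lower in CEACAM1-S, with a median of 0.44. In CEACAM1-L, 5 (27.8%) were higher, close to the chromosome's share, and 1 (5.56%) lower, with a median of 0.20. Keap1, the adaptor that hands NRF2 to degradation, had levels of 8.87, 8.95, 8.46 and 8.56 in the control line, 9.47, 9.66, 9.61 and 9.80 in CEACAM1-S, and 9.29, 9.03, 9.27 and 9.64 in CEACAM1-L. The isoform arrays all lay above the control arrays, by 0.92 ± 0.13 and 0.60 ± 0.13 (adjusted p = 0.000675 in CEACAM1-L), and the other 3 kept features of Keap1 gave 0.79, 0.71 and 0.78 in CEACAM1-S. Cryab, a small heat shock protein, had the largest rise on the chromosome in both lines. Its levels were 5.51, 5.43, 5.41 and 5.64 in the control line, 7.19, 8.36, 7.75 and 7.49 in CEACAM1-S, and 9.46, 8.60, 8.54 and 9.03 in CEACAM1-L, with no overlap between the 3 groups. The differences were 2.20 ± 0.21 (4.59-fold) and 3.41 ± 0.21 (10.6-fold, adjusted p = 4.07e-12 in CEACAM1-L). Uba7, the activating enzyme for the interferon-induced modifier ISG15, differed by 1.68 ± 0.16 and 1.05 ± 0.16 (adjusted p = 1.12e-05 in CEACAM1-L).

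Of 16 tested genes of matrix and adhesion, 9 (56.2%) were called higher and 0 lower in CEACAM1-S, with a median of 0.53, and 6 (37.5%) higher and 1 (6.25%) lower in CEACAM1-L, with a median of 0.06. Islr, a secreted protein of connective tissue cells with leucine-rich repeats, was undetected throughout the control and detected on the 8 isoform arrays, with levels of 6.37, 6.12, 6.69 and 6.25 in CEACAM1-S and 5.27, 5.14, 5.02 and 5.25 in CEACAM1-L. Its rise was at least 2.94-fold in the CEACAM1-S line and at least 1.29-fold in the CEACAM1-L line, where the control is held at the lowest signal that counted as detected. Lamb2, the laminin beta 2 chain of basement membranes, differed by 1.07 ± 0.14 and 0.50 ± 0.14 (adjusted p = 0.00566 in CEACAM1-L). Col7a1, the collagen of anchoring fibrils, differed by 0.99 ± 0.12 and 0.91 ± 0.12 (adjusted p = 2.11e-06 in CEACAM1-L), but a second kept feature gave 0.63 and 0.26.

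Of 30 tested genes of the cytoskeleton and membrane traffic, 15 (50%) were called higher and 0 lower in CEACAM1-S, with a median of 0.52, and 5 (16.7%) higher and 3 (10%) lower in CEACAM1-L, with a median of 0.03. The first share lies near that of the chromosome and the second near that of all genes, so they say nothing of this list. Vps11, a shared subunit of endosome tethering complexes, differed by 1.16 ± 0.13 and 1.00 ± 0.13 (adjusted p = 2.24e-06 in CEACAM1-L), but a second kept feature gave 0.09 and -0.17. Rab6b, a Golgi GTPase, differed by 1.07 ± 0.16 and 0.38 ± 0.16 (adjusted p = 0.0636 in CEACAM1-L). Of 14 tested genes of the DNA damage response and chromatin, 8 (57.1%) were called higher and 0 lower in CEACAM1-S, with a median of 0.40. In CEACAM1-L, 2 (14.3%) were higher and 1 (7.14%) lower, with a median of 0.10. These shares were not tested against those of the chromosome or of all genes, so nothing is read from them. Atm, the kinase that responds to DNA double-strand breaks, differed by 0.71 ± 0.13 and 0.14 ± 0.13 (adjusted p = 0.464 in CEACAM1-L), while its other 2 kept features gave 0.08 and -0.07 in CEACAM1-S. The difference of Sin3a, a corepressor scaffold, was 0.57 ± 0.10 in CEACAM1-S and 0.40 ± 0.10 in CEACAM1-L (adjusted p = 0.0018). Of 15 tested genes of ribosomal proteins and translation, 8 (53.3%) were called higher and 0 lower in CEACAM1-S, with a median of 0.29, and 3 (20%) higher and 2 (13.3%) lower in CEACAM1-L, with a median of 0.08, again shares near those of the chromosome or of all genes. Qars, the glutaminyl-tRNA synthetase, differed by 0.64 ± 0.09 and 0.41 ± 0.09 (adjusted p = 0.000952 in CEACAM1-L). Only 1 of the 15 immune cell genes of chromosome 9 on the array was tested, Ccrl2, and it was called in neither comparison with control.

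Of 17 tested members of growth factor, TGF-beta and Wnt signalling, 7 (41.2%) were called higher and 0 lower in CEACAM1-S, with a median of 0.25, and 3 (17.6%) higher and 4 (23.5%) lower in CEACAM1-L, with a median of 0.07. The share called higher lay near that of the chromosome in CEACAM1-S and near that of all genes in CEACAM1-L, so they say nothing of this list. Tgfbr2, the ligand-binding receptor for TGF-beta, had levels of 10.96, 10.76, 10.74 and 10.76 in the control line, 12.21, 11.74, 12.09 and 12.18 in CEACAM1-S, and 10.53, 10.53, 10.41 and 10.48 in CEACAM1-L. The 3 groups did not overlap, with a difference of 1.25 ± 0.10 (2.38-fold) in CEACAM1-S and -0.32 ± 0.10 in CEACAM1-L (adjusted p = 0.0131). A second kept feature of Tgfbr2 gave 1.49 in CEACAM1-S and 1.19 in CEACAM1-L, so the direction in CEACAM1-L depends on the feature. Arhgef12, an exchange factor for RhoA, was higher in both lines, by 1.10 ± 0.17 and 1.46 ± 0.17 (adjusted p = 3.82e-07 in CEACAM1-L), and so was the inhibitory G protein subunit Gnai2, by 0.92 ± 0.11 and 0.76 ± 0.11 (adjusted p = 4.22e-06 in CEACAM1-L).

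In all, 16 chromosome 9 genes (3.15%) were called higher in CEACAM1-S and lower in CEACAM1-L, beside 0.352% of all tested genes; since the chromosome was picked for its rise in CEACAM1-S, nothing is read from this. The count holds Tgfbr2, whose call in CEACAM1-L turned to 0.44 with the mean of its features, and the prostatic acid phosphatase gene Acpp, whose CEACAM1-L call (-0.38, adjusted p = 0.0456) was lost without any 1 of 6 arrays: CEACAM1-L array 1 (-0.28) or 2 (-0.36), CEACAM1-S array 1 (-0.38) or 3 (-0.38), or control array 2 (-0.37) or 3 (-0.29). A second kept feature of Acpp gave 0.72 in CEACAM1-S and -0.06 in CEACAM1-L. Nnmt, which methylates nicotinamide, had levels of 10.66, 10.79, 10.61 and 10.56 in the control line, 11.50, 10.99, 11.45 and 11.35 in CEACAM1-S, and 8.60, 8.76, 8.66 and 10.01 in CEACAM1-L. The groups did not overlap, although the fourth CEACAM1-L array lay far above the other 3. The differences were 0.67 ± 0.20 in CEACAM1-S and -1.65 ± 0.20 in CEACAM1-L (adjusted p = 3.58e-07), and its other 2 kept features gave 0.79 and 0.57 in CEACAM1-S and -2.14 and -2.03 in CEACAM1-L. Panx1, a membrane channel that releases ATP, differed by 0.67 ± 0.16 and -1.02 ± 0.16 (adjusted p = 2.04e-05 in CEACAM1-L). Smad3, the transcription factor downstream of Tgfbr2, was named after its values were seen and differed by 0.41 ± 0.12 and -0.55 ± 0.12 (adjusted p = 0.000772 in CEACAM1-L).

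The 12 genes called lower in CEACAM1-S were Mmp10, Pate14, Stra6, Rbpms2, Tpbg, Snhg5, Msl2, Slco2a1, Dusp7, Mapkapk3, Cish and Csrnp1, of which Rbpms2, Tpbg and Cish were named after their values were seen. Stra6, the membrane receptor that takes up retinol, had levels of 8.93, 8.89, 8.92 and 8.81 in the control line, 8.03, 7.16, 7.90 and 8.19 in CEACAM1-S, and 5.73, 5.62, 6.13 and 6.49 in CEACAM1-L. The groups did not overlap, with differences of -1.07 ± 0.19 and -2.89 ± 0.19 (adjusted p = 2.03e-11 in CEACAM1-L). Slco2a1, a prostaglandin transporter, showed the same order, with -0.81 ± 0.17 and -2.42 ± 0.17 (adjusted p = 7.14e-11 in CEACAM1-L). Pate14 was detected on all control arrays and on no isoform array, and was at least 5.24-fold lower in CEACAM1-S and at least 5.2-fold lower in CEACAM1-L. Mapkapk3, a kinase downstream of p38, differed by -1.09 ± 0.18 and -0.82 ± 0.18 (adjusted p = 0.000627 in CEACAM1-L), and its other 2 kept features gave -0.14 and -0.85 in CEACAM1-S and -0.45 and -1.22 in CEACAM1-L. Without control array 3, 6 genes rather than 12 were called lower in CEACAM1-S. Over all tested genes, 1818 rather than 2148 were then called in either direction. Dusp7 lost its call without control array 3 (-0.33) or CEACAM1-S array 3 (-0.39), and Msl2 without CEACAM1-S array 2 (-0.44). Msl2 also has 3 kept features that disagree, at -0.53, -0.25 and 0.14 in CEACAM1-S. Without CEACAM1-L array 1 or 2 or control array 2 or 3 another of them had the highest mean and stood for the gene, and its difference was then 0.14, 0.14, 0.02 and 0.20.

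A few genes rose mainly in CEACAM1-L. Layn, a hyaluronan receptor, had levels of 6.25, 6.03, 6.18 and 6.32 in the control line, 6.56, 6.87, 6.81 and 6.54 in CEACAM1-S, and 8.09, 7.96, 8.10 and 7.77 in CEACAM1-L. The CEACAM1-L arrays were the highest, with 1.79 ± 0.15 against control (adjusted p = 1.02e-09), beside 0.50 ± 0.15 in CEACAM1-S, a call lost without control array 2 (0.44). Csnk1g1, a casein kinase 1 gamma, differed by 1.87 ± 0.22 in CEACAM1-L (adjusted p = 2.45e-07), beside 0.35 ± 0.22 in CEACAM1-S, but its other 2 kept features gave 0.43 and -0.23 in CEACAM1-L. Fam214a differed by 1.34 ± 0.18 in CEACAM1-L (adjusted p = 2.82e-06), beside 0.18 ± 0.18 in CEACAM1-S.

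The size of the shift followed the signal of the features. In the lowest of 3 bins of mean signal the median of chromosome 9 in CEACAM1-S was 0.18 and 20.9% of genes were called higher, in the middle bin 0.42 and 50.3%, and in the highest bin 0.47 and 71.4%. On the other chromosomes the share called higher also grew with signal, from 6.08% through 10.8% to 13.5%. Their medians in these bins were -0.01, -0.04 and -0.03. On chromosome 9, the 22 genes detected on exactly 4 arrays had a median of 0.10, the 27 genes just outside the rule with 3 arrays had 0.06, and the 403 detected on all 12 arrays had 0.42. The 10 features with the highest signal nevertheless differed among themselves. Tpm1, a tropomyosin of actin filaments, had levels of 12.22, 12.23, 12.31 and 12.09 in the control line, 12.81, 12.75, 12.71 and 12.75 in CEACAM1-S, and 12.12, 12.34, 12.34 and 12.30 in CEACAM1-L. It was higher in CEACAM1-S on every array, by 0.54 ± 0.08, and differed by 0.06 ± 0.08 in CEACAM1-L (adjusted p = 0.595). Atp5l, a subunit of ATP synthase, differed by 0.61 ± 0.10 and 0.51 ± 0.10 (adjusted p = 0.000146 in CEACAM1-L). By contrast the ribosomal stalk gene Rplp1 and the elongation factor gene Eef1a1 differed by -0.06 ± 0.08 and -0.05 ± 0.08 in CEACAM1-S, and the chaperone gene Hspa8 by 0.17 ± 0.12. Rplp1 and Eef1a1 have near-identical copies elsewhere in the genome. Whether their features also read these copies was not tested, so the values of both genes are uncertain. The further kept features gave 0.02 and 0.05 for Eef1a1 and 0.39 and 0.20 for Hspa8. The first tested gene along the chromosome, the tRNA methyltransferase gene Alkbh8, differed by 0.01 ± 0.21 in CEACAM1-S and the last, Ppp2r3d, by 0.21 ± 0.18, although a second kept feature of Ppp2r3d gave 0.74 in CEACAM1-S and 0.81 in CEACAM1-L.

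Features that the fit had not used are described here for the same arrays. The 508 genes had 270 further kept features, in 192 genes, with a median of 0.25 in CEACAM1-S and 0.002 in CEACAM1-L. Of these, 219 had the sign of their gene's own feature in CEACAM1-S and 68 (25.2%) were called higher, beside 7.85% of the further kept features of all tested genes. They share their RNA and arrays with the features of the fit and are no independent sample. The agreement in sign was not counted on other chromosomes. Since chromosome 9 was picked for its rise in CEACAM1-S on these arrays, nothing is read from these counts.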

How the data were processed

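RNA of 12 MC38 samples, 4 per line, was measured on 1-colour Illumina mouse bead arrays, 1 per sample; groups and replicate numbers came from the sample titles. Per the file headers, the deposited table of raw values gives each feature an intensity and a detection p-value on every array. The deposited series values are log2 values that the authors had normalized; they served as an alternative. The submitters' processing notes list lumi 2.6.0, with no role stated; how these values were normalized is not given here.

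Intensities were processed with neqc of limma 3.58.1 (R 4.3.3): normexp background correction inferred from detection, offset 16, then quantile normalization and log2. Features detected (p-value below 0.05) by 4 or more arrays were kept, 14091 of them with 1 symbol, and each gene was represented by its kept feature with the highest mean, which left 9100 genes; features with several symbols or none (18 and 10378 of 45281) were left out. Symbols came from the platform annotation and positions from the RefSeq annotation of GRCm38.p6, which placed 9088 tested genes on a chromosome. All 12 arrays entered 1 linear model with a mean per group (lmFit, eBayes with a mean-variance trend, 9 residual degrees of freedom), with two-sided tests and Benjamini-Hochberg adjustment over all genes; adjusted p-values in the text are limma's. The fit was tested on simulated data. Where a feature was detected on no array of a group, the fold is a bound against the higher of its own signal and the lowest detected signal of each array. Precision is limited by the number of arrays.

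Genes are named by rule: the 10 with the highest mean, the 8 largest rises and 8 largest falls per comparison without overlap between groups, up to 4 called members per gene list with the largest difference, and the first and last gene; unnamed and predicted genes were left out. The members, the gene lists (matrix metalloproteinases, caspases and IAPs, signalling, matrix and adhesion, DNA damage and chromatin, metabolism, folding and ubiquitin, cytoskeleton and traffic, cell cycle, translation, immune genes and 3 marker lists) and the tests were chosen with earlier results of these data known. Alternatives covered normalization, background, detection filter, features per gene, variance trend, array weights, replicate and set blocks, level, window size and leaving out each array.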

Additional observations from a re-analysis of the deposited data

Results flagged for a closer look

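The contrasts of 3 genes between the isoform lines stood out because all arrays of one line moved up from the control and all arrays of the other moved down: CEACAM1-L minus CEACAM1-S was -2.31 for Nnmt, -1.69 for Panx1 and -1.57 for Tgfbr2. Each was called lower in the fit over all genes; the second feature of Tgfbr2 gave -0.30 for this difference.

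Among 201 groups of 4 arrays, 16 held 1 array far from the other 3, where chance gives about 1 in 20 groups. The level of chromosome 9 was 0.35 on CEACAM1-S array 2, below the other 3 of that line. The same array was low for Eef1a1 (14.54), Uba7 (8.82), Msl2 (5.08) and stood apart for Dalrd3 (7.05). Control array 4 was low for Rps27l (12.23), Slco2a1 (7.68), Csnk1g1 (4.69) and Birc2 (7.45), and control array 1 was high for Tgfbr2 (10.96). In CEACAM1-L, array 4 was high for Nnmt (10.01) and low for Fam214a (6.96) and stood apart for Hspa8 (13.34), array 3 was high for Casp4 (8.14) and array 1 low for Cox7a2 (5.21). In CEACAM1-S, array 4 was low for Pate14 (4.23), where the feature was detected on no array of the line. No explanation of these values was tested.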

How the results depend on the processing

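The direction of the median difference was kept in each of the 3 comparisons under every alternative run, while its size and the counts of calls moved; the cause was not tested. For CEACAM1-S minus control, the count of chromosome 9 genes called higher went from 240 to 26 with scaling to a common median. It went to 121 with set B alone. As shares these were 47.2%, 5.12% and 23.8%, beside 12.2%, 1.66% and 5.58% of all tested genes. The count called lower went from 12 to 2 with the common median, 6 with set B and 5 among genes above the median level. The other counts of chromosome 9 calls in this paragraph are given without the share over all genes, so nothing is read from them. The median over other genes went from 0.40 to 0.46 (detected on all 12 arrays), 0.35 (every feature by itself and mean of features), 0.24 (no background correction), 0.064 (no detection filter), 0.21 (the authors' processed values) and 0.49 (above the median level). For CEACAM1-L minus control, higher calls went from 127 to 19 (common median), 83 (set B) and 81 (above the median level), lower calls from 63 to 12, 27 and 39, and the median from 0.078 to 0.016 without a detection filter. For CEACAM1-L minus CEACAM1-S, higher calls went from 19 to 7, 7 and 5 and lower calls from 189 to 26 (common median) and 64 (set B), and the median from -0.29 to -0.33 (all 12 arrays, and set A alone), -0.18 (no background correction), -0.052 (no detection filter), -0.15 (the authors' values) and -0.37 (above the median level). The gap between the lowest CEACAM1-S and the highest control array went from 0.32 to 0.37, 0.20, 0.064, 0.18 and 0.38 under detection on all arrays, no background correction, no detection filter, the authors' values and genes above the median level. Positive windows were 24 of 25 at 5 Mb. Scaling to a common median raised the median standard error from 0.15 to 0.34 and put the median of all genes at -0.11 in CEACAM1-L minus control. Of the calls of named genes it kept 16 of 51, 23 of 46 and 17 of 32 in the 3 comparisons.

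Leaving out 1 array gave 199 to 246 higher and 6 to 13 lower calls with a median of 0.38 to 0.40 in CEACAM1-S minus control. The higher calls were 39.2% to 48.4% of chromosome 9 genes, beside 10.3% to 12.5% of all tested genes. The values were 112 to 129, 50 to 69 and 0.07 to 0.11 in CEACAM1-L minus control, and 14 to 20, 154 to 203 and -0.33 to -0.27 in CEACAM1-L minus CEACAM1-S. Lower calls, and all calls of the last 2 comparisons, are given without the share over all genes, so nothing is read from them. Msl2 ranged from -0.60 (without control replicate 1) to 0.20 in CEACAM1-S: it was 0.14, 0.14, 0.02 and 0.20 without CEACAM1-L replicate 1, CEACAM1-L replicate 2, control replicate 2 and control replicate 3, where another of its features, chosen again by its mean, stood for the gene. Tgfbr2 turned to 0.44 in CEACAM1-L with the mean of its features. The replicate numbers do not pair the samples: deviations from the group mean correlated at -0.20 to 0.19 over 12 pairs of equal number. With the replicate block, 228 genes were higher and 9 lower in CEACAM1-S minus control, 126 and 62 in CEACAM1-L minus control and 17 and 186 in CEACAM1-L minus CEACAM1-S. The 228 were 44.9% of chromosome 9 genes, beside 11.4% of all tested genes. Nothing is read from the other counts of this fit, which are given without such a share. Over 24 pairs of arrays of the same set, A or B, the deviations correlated at 0.04 to 0.26. Pairs of arrays from different sets all correlated below 0, at -0.27 to -0.03. The main fit has no term for the set. With the set as a block, 50.4% of chromosome 9 genes were called higher in CEACAM1-S minus control, beside 14.2% of all tested genes. Genes with signal near background had smaller measured differences, where signal was the mean over all 12 arrays, those of CEACAM1-S among them. Whether low signal limits what can be seen there was not tested.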
